A study of Mus musculus with 7 samples.

Results

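Glutathione S-transferases (GSTs) were followed in mouse ovarian granulosa cells with and without Fhl2, a gene for a LIM-domain protein that acts as a partner of transcription factors. The 10 genes were chosen by name because alpha-class members stood higher in earlier results of these data, and they were taken from a count table of 55228 rows. They comprised Gsta2, Gsta3 and Gsta4 of the alpha class, Gstm1, Gstm2 and Gstm6 of the mu class, and Gstp1 (pi), Gstt1 (theta), Gsto1 (omega) and Mgst1 (microsomal). The choice used the contrast of knockout against wild type, so the members' differences in that contrast are given as a description, without a test. All 10 members passed the filter on low counts.

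RNA was sequenced from primary granulosa cells of C57BL/6J mice in 2 untreated groups. The wild-type (WT) group had 4 libraries and the group labelled Fhl2 knockout (Fhl2 KO) had 3. The labels give neither the age of the animals nor how the allele was made, and they name no separate animals or cultures for the libraries. The series' design text speaks of 5 samples where 7 libraries are labelled, so how many independent samples stand behind each n, SD and p-value is uncertain.

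GSTs join the thiol of glutathione to electrophilic compounds, which makes these compounds more soluble and ready for export. The cytosolic classes are named by Greek letters and differ in the substrates they take, while the microsomal enzymes are membrane proteins of a separate family. In steroid-making ovarian cells the family is known for removing products of lipid peroxidation, and in humans the alpha enzyme GSTA3 also isomerises precursors of progesterone and testosterone.

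Total counts per library ran from 38855596 to 50514556. Fhl2 itself had 3910, 5732, 4958 and 4798 counts in the WT libraries and 1880, 3132 and 2749 in the KO libraries, so its transcript was lower but present in every library labelled as knockout. The log2 fold change was -0.88, with an SE of 0.107 and an edgeR adjusted p of 3.29e-05 (2.23e-15 to 0.000841 over the alternative settings). With all 3 KO libraries, 13.5% of genes were called higher and 15.6% lower (29.0% in either direction). Set alone against WT, KO library 1 gave 1.63% of genes higher and 2.97% lower, KO library 2 gave 15.2% and 17.9%, and KO library 3 gave 16.6% and 17.1%. Fhl2 itself was lowest in KO library 1, at 47.9 CPM (the count scaled by library total) against 66.8 and 60.4 CPM in KO libraries 2 and 3. The trend on transcript length was taken for log2 CPM relative to each gene's mean over the libraries. In KO library 1 it was -5.86e-05 per doubling of length, between the WT libraries (0.0544 to 0.0817) and KO libraries 2 and 3 (-0.162 and -0.126). A trend of 0 is thus the average of these libraries and not a lack of dependence on length. Fold changes corrected for length and GC content are therefore given beside the members. Of 10 granulosa markers, 9 were tested, 2 rose and 4 fell, and none was at 0 in all libraries; their summed level was 5973 to 6676 CPM in WT and 6470, 5634 and 5361 CPM in KO libraries 1 to 3. Cyp19a1, the aromatase that marks estradiol-making granulosa cells, had 0 counts in the 4 WT libraries and at most 0.362 CPM in KO.

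Gsta2 belongs to a group of near-identical alpha genes on chromosome 9, which bears on how its reads can be assigned. The first 96 coding bases of the GENCODE M21 transcripts are given for the alpha genes, 5′ to 3′, with capitals at the bases that differ from Gsta2.
Gsta2: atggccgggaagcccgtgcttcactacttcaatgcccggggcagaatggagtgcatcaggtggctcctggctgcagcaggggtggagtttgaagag
Gsta1: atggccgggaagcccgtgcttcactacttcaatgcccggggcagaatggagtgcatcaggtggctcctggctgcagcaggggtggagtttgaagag
Gm3776: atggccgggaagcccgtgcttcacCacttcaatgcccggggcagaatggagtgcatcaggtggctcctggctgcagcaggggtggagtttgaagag
Gm10639: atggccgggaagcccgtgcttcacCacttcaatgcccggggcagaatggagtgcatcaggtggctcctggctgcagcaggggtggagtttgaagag
Gsta3: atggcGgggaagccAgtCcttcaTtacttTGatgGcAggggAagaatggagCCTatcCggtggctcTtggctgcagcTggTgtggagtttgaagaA
Gsta4: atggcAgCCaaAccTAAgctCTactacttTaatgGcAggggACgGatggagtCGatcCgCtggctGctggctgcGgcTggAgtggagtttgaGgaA
In this stretch Gsta1 had 0 bases different from Gsta2, Gm3776 and Gm10639 had 1 each, Gsta3 had 17 and Gsta4 had 25. Over the whole coding sequence, Gsta2 was 97.6% identical to Gsta1, 97.3% to Gm3776 and 98.5% to Gm10639, but 75.1% to Gsta3 and 66.6% to Gsta4.

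The alpha class had the highest fold changes of the 6 classes by its median. The median log2 fold change over its 3 members was 1.55, with a range of 1.07 to 2.95, and 1.51 once length and GC content were corrected for. Each of the 3 had all KO libraries above all WT libraries, a pattern shown by 16.4% of all genes tested. All 3 were called higher (edgeR, adjusted p under 0.05 over all genes), as were 13.5% of the 15798 genes tested. Because these members were chosen for standing higher, nothing is read from that difference.

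Gsta2 (chr9:78331018-78355788, minus strand, mm10) encodes an enzyme that conjugates and reduces products of lipid peroxidation. Its counts were 27, 25, 21 and 20 in the WT libraries, and 144, 248 and 144 in KO libraries 1 to 3. On the scaled level this was 0.697, 0.498, 0.449 and 0.458 CPM in WT and 3.67, 5.29 and 3.16 CPM in KO. Even the lowest KO library stood well above the highest WT library. The means were 0.526 ± 0.116 CPM (SD, n = 4) and 4.04 ± 1.11 CPM (SD, n = 3), a 7.71-fold difference (log2 2.95, SE 0.254). After correction the log2 fold change was 2.75 (SE 0.248).

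How reads of Gsta2 were split from its near copies is not given in the sources used here, so its value is uncertain in that respect. Of all stretches of 50 bases in its longest coding transcript, 64.2% also occurred in a transcript of another gene, and 35% of stretches of 100 bases did. Reads assigned to the near copies themselves were few. Gsta1 had 0, 0, 2 and 0 counts in WT and 5, 6 and 6 in KO, and Gm3776 had 0, 0, 0 and 1 in WT and 1, 9 and 4 in KO. Gm10639 had 0 counts in the WT libraries and 2, 1 and 0 in KO. These counts were too low to test, and added to those of Gsta2 they would leave the KO libraries above the WT libraries.

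Gsta3 (chr1:21240589-21265661, plus strand) is the mouse gene of the name shared with the human steroid isomerase. Its level was 1.76, 1.73, 2.50 and 1.88 CPM in WT and 4.23, 6.07 and 7.01 CPM in KO. The groups did not overlap, and KO library 3 held the highest level here while it held the lowest KO level of Gsta2. The means were 1.97 ± 0.362 CPM and 5.77 ± 1.41 CPM, a 2.93-fold difference (log2 1.55, SE 0.199; corrected 1.51, SE 0.181). None of its stretches of 50 bases occurred in another gene's transcript.

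Gsta4 (chr9:78182774-78209349, plus strand) encodes the alpha enzyme best known for clearing hydroxynonenal, a reactive aldehyde from oxidised lipids. It was the most abundant of the alpha members, at 23.3, 26.8, 27.3 and 27.0 CPM in WT and 47.0, 59.9 and 57.7 CPM in KO. KO libraries 2 and 3 lay close together, and KO library 1 lay between them and the WT libraries. The means were 26.1 ± 1.86 CPM and 54.9 ± 6.87 CPM, a 2.10-fold difference (log2 1.07, SE 0.103; corrected 0.88, SE 0.0751). Like Gsta3, it shared no stretch of 50 bases with another gene.

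**Figure D1:**
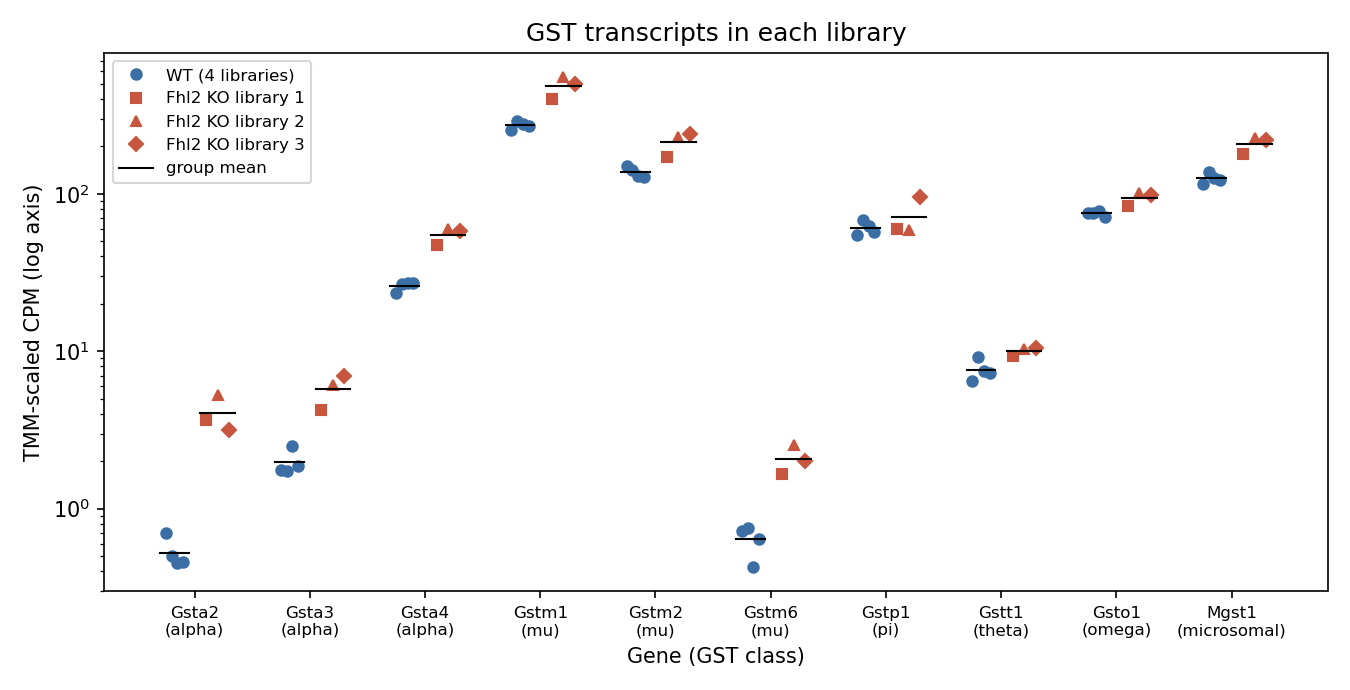
Level of each GST gene in each library (CPM scaled by TMM, log axis), with circles for the 4 WT libraries, squares, triangles and diamonds for KO libraries 1, 2 and 3, and a line at each group mean. The groups are apart for every member except Gstp1, where KO library 3 stands at 95.3 CPM and KO libraries 1 and 2 lie within the WT range. Of all genes tested, 16.4% had every KO library above every WT library.

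The mu members are neighbours in a cluster on chromosome 3 and covered a wide span of levels. Their median log2 fold change was 0.82, with a range of 0.64 to 1.70, and 0.59 after correction. Gstm1 (chr3:108012255-108017973, minus strand), a broadly acting conjugating enzyme, was the most abundant member. It stood at 254.6, 289.9, 277.0 and 269.7 CPM in WT and at 402.7, 548.2 and 495.4 CPM in KO. The highest WT library was far under the lowest KO library, KO library 1. The means were 272.8 ± 14.7 CPM and 482.1 ± 73.7 CPM, 1.77-fold apart (log2 0.82, SE 0.102; corrected 0.59, SE 0.0754).

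Gstm2 (chr3:107981702-107986453, minus strand), a second conjugating enzyme of the class, ran from 128.4 to 149.9 CPM in WT and stood at 172.0, 227.9 and 238.7 CPM in KO. Its fold change was 1.55 (log2 0.64, SE 0.108), and 0.42 on the log2 scale after correction (SE 0.0817). Gstm6 (chr3:107938847-107943749, minus strand) was the weakly expressed mu member, with 28, 38, 20 and 28 counts in WT and 65, 119 and 92 in KO. Its scaled levels were 0.723, 0.757, 0.428 and 0.641 CPM in WT and 1.66, 2.54 and 2.02 CPM in KO. The groups were apart, and the means of 0.637 ± 0.148 CPM and 2.07 ± 0.442 CPM differed 3.25-fold (log2 1.70, SE 0.283; corrected 1.504, SE 0.272). Before the correction Gstm6 thus lay above Gsta3 and Gsta4 in fold change, and after it Gsta3 stood at 1.51 and Gstm6 at 1.504, so the alpha and mu classes overlapped.

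The mu genes share less sequence than the Gsta2 group. Coding identity was 85.9% between Gstm1 and Gstm2, 77.9% between Gstm1 and Gstm6, and 80.9% between Gstm2 and Gstm6. Stretches of 50 bases found in another gene made up 23.1% of the Gstm1 transcript, 9.36% of Gstm2 and 11.5% of Gstm6. In cluster order by position, the log2 fold changes were 0.31 for Gstm5, 0.43 for Gstm7, 1.70 for Gstm6, 0.64 for Gstm2, 0.82 for Gstm1 and 0.42 for Gstm4. Neighbours in the cluster therefore did not share one fold change. Gstm3, between Gstm6 and Gstm2, had at most 10 counts in a library and was not tested.

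**Figure D2:**
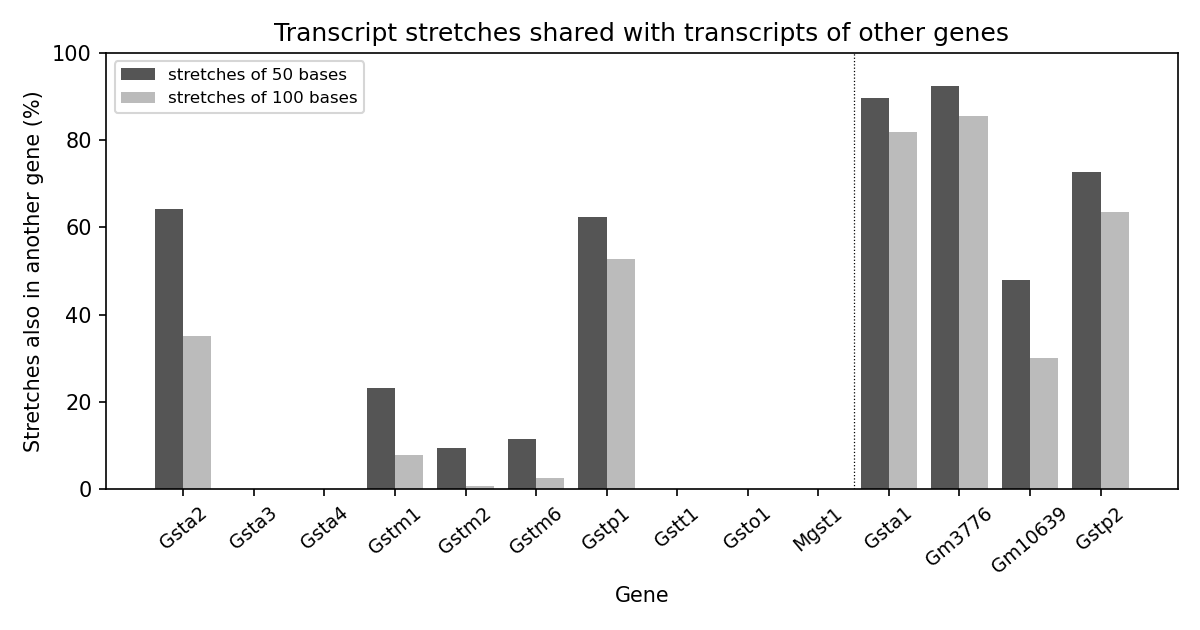
Percent of the stretches of 50 bases (dark bars) and 100 bases (light bars) in the longest coding transcript of each gene that also occur in a transcript of another gene in GENCODE M21, with the members left of the dotted line and their near copies right of it. Gsta2 (64.2%) and Gstp1 (62.3%) share most of theirs at 50 bases, while Gsta3, Gsta4, Gstt1, Gsto1 and Mgst1 share none.

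Gstp1 (chr19:4035407-4037985, minus strand), which also binds and inhibits the stress kinase JNK, was the member whose groups overlapped. Its level was 54.8, 67.7, 62.8 and 57.0 CPM in WT and 59.7, 59.1 and 95.3 CPM in KO. KO libraries 1 and 2 lay inside the WT range, and only KO library 3 lay above it. The means were 60.6 ± 5.86 CPM and 71.4 ± 20.7 CPM (log2 0.24, SE 0.156), and the sign turned after correction (log2 -0.073, SE 0.120). It also turned without KO library 3 (-0.028) and with KO library 1 (-0.024) or 2 (-0.018) alone against WT. Gstp1 and its near copy Gstp2 were 98.1% identical in coding sequence, and 62.3% of the stretches of 50 bases of Gstp1 occurred in another gene, so its value is uncertain too. Reads assigned to Gstp2 were few, at 4, 22, 10 and 1 counts in WT and 2, 5 and 11 in KO.

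Gstt1 (chr10:75783813-75798584, minus strand) acts on small halogenated compounds. It ran from 6.43 to 9.14 CPM in WT and stood at 9.33, 10.3 and 10.4 CPM in KO, so that KO library 1 lay just above the highest WT library. Its fold change was 1.32 (log2 0.40, SE 0.134), and 0.14 on the log2 scale after correction (SE 0.117). Gsto1 (chr19:47854970-47864790, plus strand) is a thioltransferase that reduces disulfides and dehydroascorbate. Its level was 71.3 to 77.5 CPM in WT and 83.1, 101.7 and 98.3 CPM in KO, with means 1.26-fold apart (log2 0.33, SE 0.0915; corrected 0.13, SE 0.0651).

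Mgst1 (chr6:138140316-138156755, plus strand) is a membrane enzyme of the endoplasmic reticulum and outer mitochondrial membrane that also reduces lipid hydroperoxides. It stood at 116.2, 136.8, 126.8 and 123.1 CPM in WT and at 179.1, 225.7 and 218.3 CPM in KO. The groups were apart by more than the whole range of the WT libraries. The means were 125.7 ± 8.59 CPM and 207.7 ± 25.1 CPM, 1.65-fold apart (log2 0.72, SE 0.0971; corrected 0.55, SE 0.0710). Mgst1, the only microsomal member, thus lay nearer to the mu members Gstm1 and Gstm2 than to the theta, omega and pi members. This describes Mgst1 and not its class. The other microsomal genes tested, outside the members, had log2 fold changes of 0.37 (Mgst2), 0.15 (Mgst3) and 0.22 (Ptges).

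**Figure D3:**
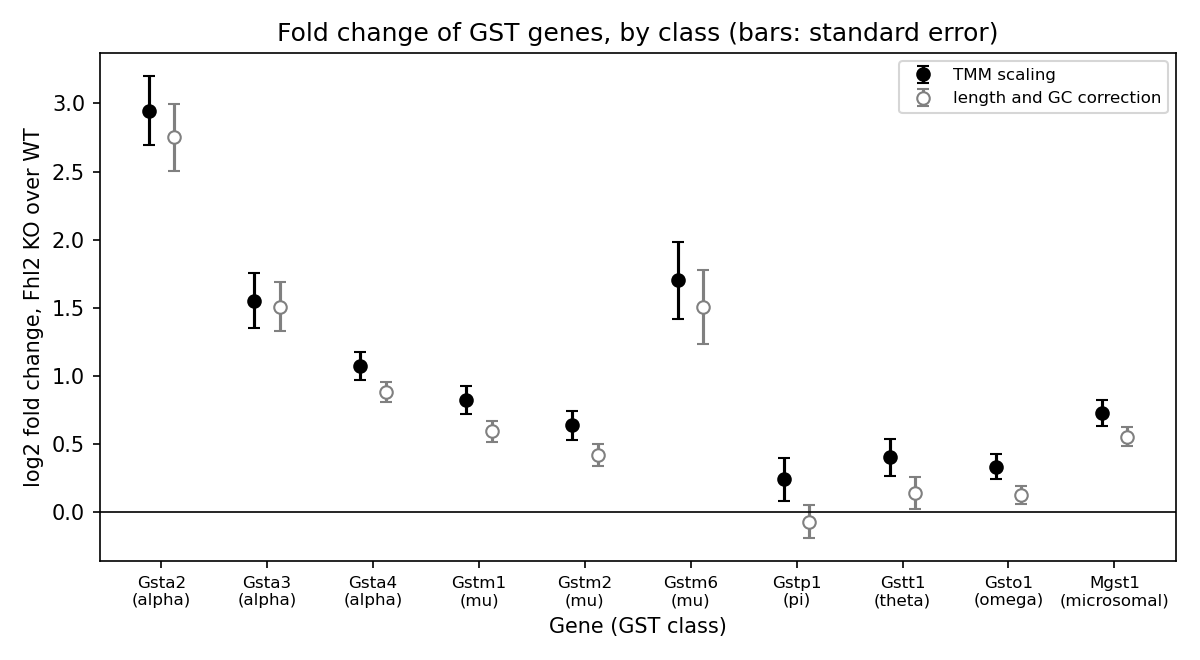
Log2 fold change of each member, Fhl2 KO over WT, with TMM scaling (filled) and after correction for transcript length and GC content (open), and bars for the standard error. Gsta2 is highest at 2.95, Gstm6 and Gsta3 follow at 1.70 and 1.55, and Gstp1, Gstt1 and Gsto1 lie at or near 0 after correction.

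Over the 10 members the median log2 fold change was 0.77, and 0.57 after correction, beside -0.000184 and 0.0113 over all genes tested. After correction 7 of the 10 were called higher, all but Gstp1, Gstt1 and Gsto1, beside 12.2% of all genes. Counted by size, 4 members (Gsta2, Gsta3, Gsta4 and Gstm6) were at least 2-fold higher and called, beside 1.00% of all genes. Without the correction 9 of 10 were called higher, beside 13.5% of all genes. That count was 7 to 9 when each library was left out in turn, with 7 without WT library 4 and without KO library 3. Over all genes, those fits called from 662 of 16203 higher (without KO library 3) to 3331 of 16185 (without KO library 1). The contrast chose the members, so these shares carry no weight as evidence.

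Most members were lowest in the same KO library. KO library 1 held the lowest KO level of 8 members, the exceptions being Gsta2 (lowest in library 3) and Gstp1 (lowest in library 2). Set against the WT mean, Gsta4 stood at 1.80-fold in KO library 1, 2.29-fold in library 2 and 2.21-fold in library 3, and Gstm1 at 1.48-fold, 2.01-fold and 1.82-fold. With KO library 1 alone against WT, the members' log2 fold changes ran from -0.024 (Gstp1) to 2.80 (Gsta2), with a median of 0.534. With KO library 2 alone the median was 0.943, and with KO library 3 alone it was 0.847. Each of these fits rests on 1 KO library. That library is part of the contrast that chose the members, so these values are a description and carry no weight as evidence.

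Per length of merged exons, the WT levels of the members spanned a wide range. Gstm1 led at 185.2 ± 10 RPKM (SD, n = 4), the CPM per kilobase of exon, the 255th of 15574 genes ranked. Gstm2 (81.6 ± 6.11 RPKM), Mgst1 (62.5 ± 4.27 RPKM), Gstp1 (39.1 ± 3.79 RPKM), Gsto1 (37.1 ± 1.31 RPKM) and Gsta4 (20.6 ± 1.47 RPKM) followed. Gstt1 stood at 4.97 ± 0.741 RPKM, near the middle of the genes ranked, and Gsta3, Gsta2 and Gstm6 were lowest at 0.453 ± 0.0834, 0.447 ± 0.0988 and 0.320 ± 0.0743 RPKM. In this order the neighbours Gstp1 and Gsto1 overlapped over the WT libraries, as did Gsta3 and Gsta2, and the other neighbours did not. The members of the highest fold were thus among those of lowest level.

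In KO the order changed at the low end. Gsta2 reached a mean of 3.43 RPKM, above Gsta3 at 1.33 RPKM and Gstm6 at 1.04 RPKM, yet under Gstt1 at 6.57 RPKM. Summed over the members, the level was 416.4 to 458.1 RPKM in WT and 592.7, 769.7 and 754.8 RPKM in KO libraries 1 to 3. The alpha class held 4.66 to 5.27% of that sum in WT and 6.61 to 6.96% in KO. The mu class held 61.0 to 63.0% in WT and 63.5 to 66.2% in KO, and the omega class 8.18 to 8.94% and 6.44 to 6.93%. By amount, most of the added GST transcript was therefore of the mu class.

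**Figure D4:**
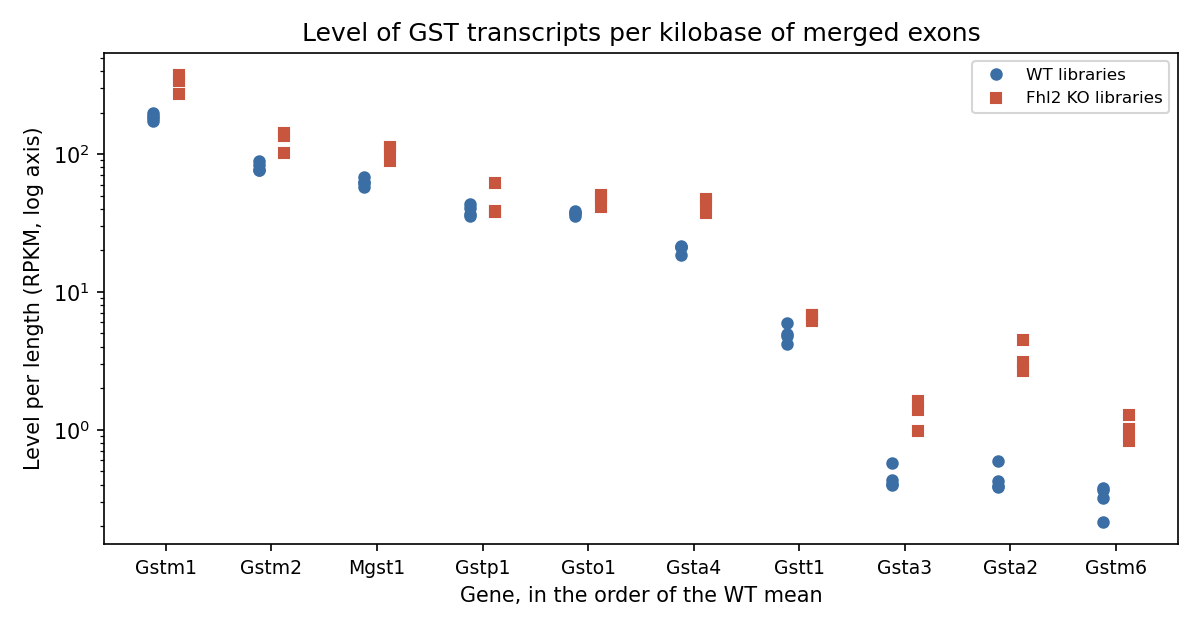
Level per length (RPKM over merged exons, log axis) of each member in the WT libraries (circles) and Fhl2 KO libraries (squares), ordered by the WT mean. Gstm1 is highest at 185.2 RPKM and Gstm6 lowest at 0.320 RPKM in WT, and Gsta2 passes Gsta3 in KO.

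The rest of the family was tested apart from the members, and since the members were chosen for standing higher, the 2 sets are not compared. Of 21 further genes of the family and its enzyme relatives in the table, 13 were tested, 5 rose, 0 fell and 8 did not pass (edgeR, adjusted p under 0.05), with a median log2 fold change of 0.34. Of all genes 13.5% were called higher and 15.6% lower. For the 0 that fell, DESeq2 also gave 0, and at an unadjusted edgeR p under 0.05 there was 1. Past adjusted p 0.05, 8 rose and 1 fell without KO library 1, and 6 rose and 1 fell with no low-count filter. Gstcd, with a GST C-terminal domain, had a log2 fold change of -0.32 and did not pass (edgeR adjusted p = 0.06). After correction 4 rose with a median of 0.24. Gstm7 rose from 23.0 ± 1.17 to 31.1 ± 3.12 CPM (log2 0.43, SE 0.0991, edgeR adjusted p = 0.00502, and 0.000131 to 0.239 over the alternatives). Gstm4, Gstz1, a zeta enzyme that degrades tyrosine products, Mgst2 and Gstm5 also rose, by 0.42, 0.35, 0.37 and 0.31 on the log2 scale.

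Each of these last 4 calls was lost when 1 library was left out. Without KO library 3 the edgeR adjusted p was 0.0857 for Gstm4, 0.0989 for Gstz1, 0.148 for Mgst2 and 0.183 for Gstm5. With WT library 4 left out, Gstz1 had an edgeR adjusted p of 0.0564, and Mgst2 had 0.0659 with WT library 1 left out and 0.0591 with WT library 3 left out. For Gstm5 the edgeR adjusted p was 0.0861, 0.054, 0.106 and 0.0702 on leaving out WT library 1, WT library 3, WT library 4 and KO library 2. Gstk1, the mitochondrial and peroxisomal kappa enzyme, had a log2 fold change of 0.41 and did not pass (edgeR adjusted p = 0.0702, and 0.00147 to 0.868 over the alternatives).

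Genes that make and move glutathione, the co-substrate of the members, showed no common direction. Among the 26 tested there were 5 that rose, 4 that fell and 17 that did not pass, with a median log2 fold change of -0.04. Of all genes 13.5% were called higher and 15.6% lower, so these counts lie near those shares. After correction 6 rose and 2 fell, beside 12.2% and 11.4% of all genes. Cth, which makes cysteine for glutathione, fell by 0.83 on the log2 scale (22.1 ± 0.964 to 12.4 ± 0.662 CPM, edgeR adjusted p = 3.75e-05, and 4.81e-11 to 0.000427 over the alternatives). Gss, glutathione synthetase, rose by 0.39 (edgeR adjusted p = 0.00841, and 9.36e-05 to 0.429 over the alternatives), but did not pass without KO library 3 (0.0589). The genes of the rate-limiting step, named after their values were seen, were Gclc at a log2 fold change of -0.10 and Gclm at -0.02, and neither passed (edgeR adjusted p = 0.505 and 0.914).

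Targets of NRF2, the transcription factor best known for driving GST genes under electrophile stress, were higher in more cases than lower. Outside the GST family 24 were tested, and 15 of them rose, 2 fell and 7 did not pass, with a median log2 fold change of 0.42, beside 13.5% of all genes called higher and 15.6% lower. After correction 18 rose and 0 fell, with a median of 0.32, beside 12.2% and 11.4% of all genes. Without the correction DESeq2, like an unadjusted edgeR p under 0.05, gave 2 that fell. Osgin1 rose by 1.36 on the log2 scale (edgeR adjusted p = 2e-05, and 5.64e-11 to 0.000471 over the alternatives). Me1, malic enzyme, rose by 0.88 and Hmox1, heme oxygenase, by 0.69 (edgeR adjusted p = 6.21e-06 and 6.37e-05, at most 0.000114 and 0.00149 over the alternatives). The 2 that fell were Slc7a11 and Abcc4, both also in the glutathione list, which shares 6 genes with this one. Slc7a11, the cystine importer, fell by 0.53 (edgeR adjusted p = 0.0167, and 0.0165 to 0.585 over the alternatives), but did not pass without WT library 4 (0.0579), without KO library 2 (0.0678) or after correction (0.585). Abcc4, an export pump, had a log2 fold change of -0.39 (edgeR adjusted p = 0.0453, and 0.000227 to 0.969 over the alternatives) and lost its call in 10 of 18 alternatives. These included the correction (log2 -0.14, edgeR adjusted p = 0.343) and the removal of any 1 library other than KO library 1. The adjusted p from edgeR was 0.104, 0.0639, 0.102 and 0.0829 without WT libraries 1 to 4, 0.217 without KO library 2 (log2 -0.23) and 0.194 without KO library 3.

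Enzymes that clear aldehydes and ketones, which work beside GSTs on products of lipid peroxidation, were also mostly higher. The 26 tested comprised 16 that rose, 0 that fell and 10 that did not pass, with a median log2 fold change of 0.31, beside 13.5% of all genes called higher and 15.6% lower. DESeq2 also gave 0 that fell, as did an unadjusted edgeR p under 0.05. After correction 15 rose and 1 fell. Adh1, an alcohol dehydrogenase that also oxidises retinol, rose from 59.6 ± 1.53 to 262.5 ± 31.8 CPM (log2 2.14, edgeR adjusted p = 2.55e-10, at most 9.85e-08 over the alternatives). Adh7 rose by 2.50 and Aldh1a2, which makes retinoic acid, by 1.58 (edgeR adjusted p = 2.31e-07 and 4.99e-05, at most 2.67e-05 and 0.00964 over the alternatives).

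**Figure D5:**
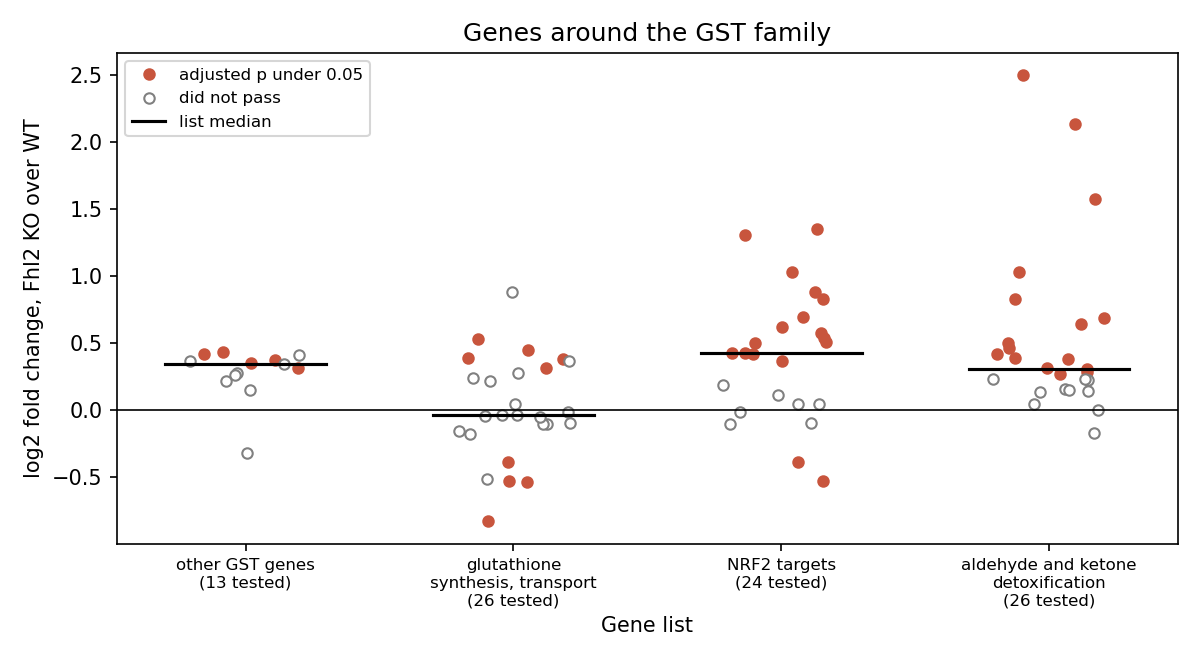
Log2 fold change, Fhl2 KO over WT, of the genes tested in 4 lists around the members, with filled points past adjusted p 0.05 (edgeR), open points not past it and a line at each list's median. The medians are 0.34 for other GST genes, -0.04 for glutathione synthesis and transport, 0.42 for NRF2 targets and 0.31 for aldehyde and ketone detoxification.

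Of 15 tested factors known to act on GST genes, 3 rose, 2 fell and 10 did not pass, beside 13.5% of all genes called higher and 15.6% lower. After correction 4 were higher and 1 was lower. Nfe2l2, which encodes NRF2, had a log2 fold change of 0.05 at the transcript level and did not pass (edgeR adjusted p = 0.743, and 0.203 to 0.918 over the alternatives). Maff, a small partner of NRF2, rose by 0.76 (edgeR adjusted p = 0.000186, at most 0.0092 over the alternatives). Cebpb rose by 0.62 (edgeR adjusted p = 0.00118), but did not pass with KO library 1 alone (0.141). Nr5a1, which encodes the steroidogenic factor SF-1, rose by 0.35 (edgeR adjusted p = 0.0106), but did not pass without KO library 3 (0.0775). Fos, a part of AP-1, fell by 0.35 (edgeR adjusted p = 0.0241, and 0.000201 to 0.319 over the alternatives), but did not pass without WT library 2 (0.0689), WT library 4 (0.0927) or KO library 3 (0.161). Nr5a2, a relative of Nr5a1, fell by 0.28 (edgeR adjusted p = 0.0329, and 0.00181 to 0.381 over the alternatives). It lost that call in 11 of 18 alternatives, with an edgeR adjusted p of 0.0789, 0.106 and 0.0834 without WT libraries 1, 3 and 4, 0.163 and 0.085 without KO libraries 2 and 3, and 0.381 after correction. Ahr, the receptor for aryl hydrocarbons, did not pass at a log2 fold change of 0.25 (edgeR adjusted p = 0.0708), and rose by 0.54 after correction (0.00235).

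Promoter windows of the members, from 250 bases before to 50 after the start in the RefSeq table (GRCm38.p6), were searched on both strands for 4 motifs, and 9 of the 10 members had one in the table. Gsta4 was not among them. The antioxidant response element core, TGACNNNGC, occurred in the windows of Gsta3 and Mgst1, 121 and 56 bases before the RefSeq start. It was found in 12.4% of all 32851 windows. The Maf-type core TGANTCAGC, which contains the AP-1 core TGANTCA, occurred in the Gstp1 window, 74 bases before the RefSeq start. It was found in 1.19% of all windows, with TGANTCA alone in 7.81%. The SF-1 core AAGGTCA was in none of the members' windows and in 4.72% of all windows. The upstream part of the alpha windows is shown for Gsta2 (chr9:78347169-78347395, minus strand) and Gsta3 (chr1:21240335-21240584, plus strand), with the site of Gstp1 (chr19:4037968-4037996, minus strand), the member whose groups overlapped. Sequences run 5′ to 3′, with capitals at the TGACNNNGC or TGANTCAGC match.
Gsta2: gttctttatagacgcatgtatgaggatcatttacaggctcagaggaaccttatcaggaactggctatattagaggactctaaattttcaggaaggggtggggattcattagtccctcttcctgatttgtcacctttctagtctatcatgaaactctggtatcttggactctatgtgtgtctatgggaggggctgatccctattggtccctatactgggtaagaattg
Gsta3: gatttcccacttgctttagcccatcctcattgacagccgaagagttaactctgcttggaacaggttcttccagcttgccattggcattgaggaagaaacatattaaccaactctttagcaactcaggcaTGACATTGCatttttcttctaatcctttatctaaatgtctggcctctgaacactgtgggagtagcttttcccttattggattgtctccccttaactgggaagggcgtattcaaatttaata
Gstp1: tccaacgtgtTGAGTCAGCatccggggcg
A match is a run of letters and not a measured binding site, and the absence of a match covers these windows only. RefSeq starts differ from the GENCODE M21 bounds used for the gene positions. By GENCODE, the Mgst1 match lies inside the gene, which begins at chr6:138140316. The Gstp1 site spans the GENCODE start at chr19:4037985, and the Gsta2 window lies within the gene span chr9:78331018-78355788.

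Markers of some other cell types also differed between the groups, in both directions, and their part in the members' values was not tested. In such bulk samples, a change in the share of cells of a type cannot be told apart from a change in RNA per cell. Of all genes 13.5% were called higher and 15.6% lower. All 6 luteal markers tested of 7 rose. Of these, Ptgfr had 0 counts in WT and Akr1c18 at most 6 in a WT library. Both passed the filter on low counts only through the KO libraries, so they could not have been called lower. The level summed over all 7 luteal markers was 1017 to 1097 CPM in WT and 2473, 2509 and 2724 CPM in KO libraries 1 to 3. Of 8 ovarian surface epithelium markers 5 rose. The sum over all 8 was 110.0 to 126.7 CPM in WT and 140.0, 163.0 and 182.7 CPM in KO, and most of it was Krt8, which did not pass (edgeR adjusted p = 0.0639). Of 5 theca and stroma markers tested of 7, 3 fell, and the sum over all 7 was 912.6 to 1015 CPM in WT and 481.7, 519.0 and 558.3 CPM in KO.

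Lung markers were also higher in KO, and by library their sum was highest in KO library 2 and lowest in KO library 3. Gsta2 had the same order of KO libraries. Of the 10 members, 6 were highest in KO library 2 and 4 in KO library 3, and the share over all genes was not determined. An order over 3 libraries shows little, and a link to the lung markers was not tested. Both lung alveolar type 2 markers tested of 7, Sftpc and Sftpb, rose. They had at most 4 counts in any WT library and passed the filter on low counts only through the KO libraries. They could therefore not have been called lower, and nothing is read from that count. The sum over all 7 lung alveolar type 2 markers was 0.0214 to 0.279 CPM in WT and 11.2, 27.7 and 0.966 CPM in KO libraries 1, 2 and 3. KO library 3, lowest in these markers among the KO libraries, held Gsta3 at 7.01 CPM, its highest level, and Gsta2 at 3.16 CPM, its lowest KO level. Of 5 lung club cell markers none was tested, Scgb3a2 was at 0 in every library, and the sum was at most 0.0642 CPM in WT and 1.63, 4.01 and 0.132 CPM in KO. Of 6 hepatocyte markers, from a tissue rich in GSTs, 1 of 2 tested rose (Apoa1, log2 0.48, edgeR adjusted p = 0.0341, and 0.372 after correction), Fgb and Cyp2e1 were at 0, and the sum was 4.03 to 4.92 CPM in WT and 4.72, 6.20 and 6.63 CPM in KO. Of 5 oviduct markers 3 were tested and 2 rose, with a sum of 0.418 to 0.870 CPM in WT and 1.66, 1.279 and 1.49 CPM in KO. The 2 that rose, Foxj1 and Epcam, had at most 6 and 11 counts in a WT library. They too passed the filter only through the KO libraries, so nothing is read from that count. The 6 macrophage markers had sums of 22.5 to 24.0 CPM in WT and 22.1, 26.0 and 22.9 CPM in KO. None of the 5 macrophage and 4 endothelium markers tested was called. Of 5 oocyte markers tested, 1 fell and 0 rose. No erythroid or adrenal cortex marker had enough counts to be tested.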

How the data were processed

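The authors deposited read counts per gene, whole numbers that were not normalized. The submitters' processing notes list featureCounts 1.6.4, HISAT2 2.2.1, Cufflinks 2.2.1, fastp, SAMtools, DESeq2 1.28.1 and build mm10, without roles. For the annotation release, the strand setting and the rule for shared reads, nothing is given in the sources used here. No exon of another GENCODE M21 gene overlapped a member's exons.

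Genotype was tested with edgeR 4.0.16 under R 4.3.3 (filterByExpr at a minimum count of 10, TMM scaling, robust glmQLFit, glmQLFTest), with Benjamini-Hochberg adjustment over 15798 genes, and the steps were tested on simulated data. Levels are CPM or RPKM scaled by TMM, as mean ± SD. The length and GC correction used spline trends per library (4 degrees of freedom, genes above 1 CPM) as offsets. A floor of 3 counts equals 0.0594 to 0.0772 CPM and covers counting error only. Since the labels name no separate animals, p-values cover only the spread among these samples, which may be technical. Libraries of a group differed by a chi-square per degree of freedom of 10.2 or more, so none was a duplicate.

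The members and lists were chosen with earlier results of these data known. Named outside the members were Fhl2, tested GST genes, factors acting on GST genes, up to 4 genes per list and direction with the smallest p, and the 3 genes most like each alpha member. KO libraries 2 and 3, each alone against WT, were added after seeing the data. Other alternatives were median-of-ratios size factors, library totals, DESeq2 1.42.0, no filter, a 10 CPM filter in 3 libraries, the correction, a replicate block, those 6 libraries with no block, leaving out each library, and KO library 1 alone. A lone library is assumed to vary like WT.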

Additional observations from a re-analysis of the deposited data

Results flagged for a closer look

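Of 10 members examined for a stray library among the 4 WT libraries, 1 had one: Gsta4 stood at 23.3 CPM in WT library 1 and at 26.8, 27.3 and 27.0 CPM in WT libraries 2 to 4. The gap to the nearest library was 0.87 of the whole WT range. Chance gives such a gap in about 1 of 20 groups, and the KO libraries, at 47.0 CPM or more, were above all 4.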

How the results depend on the processing

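The members' log2 fold changes kept their sign under every alternative run, except Gstp1, at -0.073 after the length and GC correction, -0.024 and -0.018 with KO library 1 or 2 alone, and -0.028 to 0.37 with each library left out, lowest without KO library 3. Over the alternatives the log2 fold change ran from 2.61 to 3.35 for Gsta2, from 1.10 to 1.85 for Gsta3 and from 0.847 to 1.215 for Gsta4. Of the 3 alpha members, the 10 CPM filter tested Gsta4 alone. The contrast chose the members, so these ranges are a description and carry no weight as evidence. Of all genes, 4588 passed adjusted p 0.05; 2960 did without WT library 4 and 781 with KO library 1 alone, and 1657 to 6740 when each library was left out. The count of other GST genes, 5, became 8 with library totals or KO library 2 alone, 0 with KO library 1 alone, 9 with KO library 3 alone, and 1 to 9 with each library left out. The glutathione list's 9 became 1 with KO library 1 alone and 2 to 12 with each library left out, the NRF2 list's 17 became 9 and 13 to 18, and the aldehyde list's 16 became 6 and 9 to 20. The cause was not tested.

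Correlations gave no sign that the replicate numbers pair the samples (r of 0.0397, -0.00322 and -0.115 between same-numbered libraries). A replicate block over 6 libraries gave 2 other GST genes, against 3 in the same libraries without it. Over all genes the block gave more calls, 3291 against 2960. Low counts limit Gsta2, Gsta3 and Gstm6, and shared sequence limits Gsta2 and Gstp1.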

Other observations

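Over the 7 libraries, the genes whose level relative to the WT mean differed least from that of each alpha member were found among 11683 genes, by the mean absolute difference of log2(CPM + 0.5). For Gsta2 they were Adh1 (difference 0.172), Krt7 (0.250), an epithelial keratin at 1.86 CPM in WT and 9.98 CPM in KO, and Adh7 (0.256). For Gsta3 they were Pdlim4 (0.114), Gpx3 (0.126), the secreted glutathione peroxidase at 167.3 CPM in WT and 417.7 CPM in KO, and Id2 (0.132). For Gsta4 they were Igfbp4 (0.0567), a binding protein of insulin-like growth factors at 127.4 CPM in WT and 273.0 CPM in KO, Mgarp (0.0617) and Npr3 (0.0678). The search picked genes that stand higher in KO, so their fold changes are a description. The added 0.5 is close to the WT mean of Gsta2, 0.526 CPM, and shrinks its rise in this measure. Without it Gsta2 had a log2 fold change of 2.95, against 2.14 for Adh1. Gsta3 was shrunk less, with 1.55 against 1.32 for Gpx3. Likeness to these 2 members therefore depends in part on the added value.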
